A study of Mus musculus with 2 samples.

Results

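NK cells were taken as the sorted cells that carried natural killer receptor and granzyme transcripts without those of T or B cells, and 90 of 4502 cells met this rule. It asked for at least 3 unique molecular identifiers (UMIs, each standing for 1 captured transcript) summed over *Ncr1*, *Klrb1c* and *Gzma*, at least 1 UMI of *Nkg7*, at most 1 UMI over *Cd3d*, *Cd3e* and *Cd3g*, and no UMI of *Cd79a*, among cells kept for having 500 or more genes and no more than 10% of UMIs from mitochondria. In the library from intact bone and muscle, 10 of 1207 cells met it, or 0.829% (exact Clopper-Pearson 95% interval 0.398 to 1.52%). In the library from fracture callus, 80 of 3295 cells met it, or 2.43% (1.93 to 3.01%), a share 2.93 times as large. Among NK and T cells together, NK cells made up 23.8% (12.1 to 39.5%) in intact tissue and 41.7% (34.6 to 49.0%) in callus. All cells had passed a sort for tdTomato, so the share that the gate let through and the share present in each tissue cannot be told apart. The authors found hematopoietic populations among the sorted cells without meaningful tdTomato expression, took them for sorting artifacts and left them out. They did not name NK cells, and tdTomato expression of the NK cells was not tested here.

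The mice carried *Clec3b.creERT2* and *Ai14.R26.tdTomato* on a C57 background. The first allele has a tamoxifen-dependent Cre inserted at the end of the *Clec3b* coding sequence, so that the Cre is made where *Clec3b* is, and the second turns on tdTomato for good once tamoxifen has activated the Cre. Tamoxifen was given 2 weeks before surgery, the right femur was fractured and pinned at 6 weeks of age (treatment "Fracture"), and callus and intact femoral diaphysis with muscle (treatment "None") were collected 3 weeks later. The protocol describes callus and intact specimens of 3 littermates after fracture surgery, pooled separately into 1 library each. Whether the intact specimens came from the operated mice is not stated outright. Mice therefore cannot be told apart, no spread between replicates exists and no test between conditions was possible. Intervals below cover counting error only. The protocol describes male mice, but *Xist*, which is made from an inactive X, was found in 10 of 10 intact and 69 of 80 callus NK cells, and 4 Y-linked genes had 0 UMIs in them. *Clec3b* itself had 0 UMIs in intact NK cells and 4 UMIs in 3 callus NK cells, or 7.79 counts per 1000000 UMIs (CPM), against 14.0 CPM in callus B cells.

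NK cells are innate lymphocytes that kill stressed, infected or transformed cells without prior sensitization. Activating receptors such as NKp46 (encoded by *Ncr1*) and NKG2D (*Klrk1*) are weighed against inhibitory receptors that bind MHC class I, in mice chiefly the Ly49 family (*Klra* genes) and CD94-NKG2A (*Klrd1* with *Klrc1*). Killing proceeds by release of perforin and granzymes, and the cells also secrete interferon-γ and chemokines. They arise in bone marrow, need IL-15 and the T-box factors T-bet (*Tbx21*) and EOMES, and as they mature they lose CD27 and gain CD11b (*Itgam*).

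The promoters of 3 marker genes are shown because RUNX and T-box factors are known regulators of NK cell genes. The sequences are RefSeq entries on GRCm38.p6, plus strand, from 250 bases before to 50 bases after the annotated start. They lie at chr7:4337465-4337764 (*Ncr1*), chr10:61297586-61297885 (*Prf1*) and chr7:43436888-43437187 (*Nkg7*). Capitals mark the RUNX letters TGTGGT or, on the other strand, ACCACA, and the T-box letters GGTGTGA, whose other strand reads TCACACC.
Ncr1: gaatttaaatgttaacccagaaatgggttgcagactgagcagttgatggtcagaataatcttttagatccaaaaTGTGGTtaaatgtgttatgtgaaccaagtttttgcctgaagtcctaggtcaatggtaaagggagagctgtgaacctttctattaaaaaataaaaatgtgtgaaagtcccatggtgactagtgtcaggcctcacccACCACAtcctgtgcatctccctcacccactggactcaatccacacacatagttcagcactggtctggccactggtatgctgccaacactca
Prf1: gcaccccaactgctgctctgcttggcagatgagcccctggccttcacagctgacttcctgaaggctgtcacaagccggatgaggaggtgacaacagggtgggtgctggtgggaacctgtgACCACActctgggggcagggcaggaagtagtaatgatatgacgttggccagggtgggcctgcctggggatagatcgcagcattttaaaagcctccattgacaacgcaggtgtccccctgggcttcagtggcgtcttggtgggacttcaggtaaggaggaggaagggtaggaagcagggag
Nkg7: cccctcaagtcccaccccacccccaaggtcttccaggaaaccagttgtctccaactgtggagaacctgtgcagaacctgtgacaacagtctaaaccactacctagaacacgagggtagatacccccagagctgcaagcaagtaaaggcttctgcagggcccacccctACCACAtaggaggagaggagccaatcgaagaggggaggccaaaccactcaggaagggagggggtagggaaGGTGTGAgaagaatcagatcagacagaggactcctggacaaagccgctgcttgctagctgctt
The *Ncr1* promoter held the RUNX letters 176 and 41 bases before the start, that of *Prf1* 130 bases before it and that of *Nkg7* 83 bases before it. The *Nkg7* promoter also held the T-box letters 13 bases before its start. Of 16 marker genes, 12 had promoters in the table. These 12 genes had 15 windows, since some have more than 1 annotated start. RUNX letters occurred in 12 of the 15 windows (10 of the 12 genes), and in 16.8% of 32851 promoters of the same length. T-box letters occurred in 3 of 15 windows (*Cd160*, *Nkg7* and *Xcl1*) and in 3.98% of all promoters. The ETS letters CCGGAAG or CTTCCGG occurred in 0 of 15 and in 8.86% of all. The windows of *Klra4*, *Klra7*, *Klra8* and *Ifng*, which are not among the 16 markers, held none of these letters. The motifs do not overlap in these windows. A match describes letters and shows neither binding nor use.

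The genes of the rule chose the cells, so their values are a description. The sum over *Ncr1*, *Klrb1c* and *Gzma* had a median of 52.5 UMIs per cell (8 to 108) in intact tissue and of 29 (3 to 125) in callus. *Nkg7* had a median of 9.5 UMIs (3 to 25) and 9 UMIs (1 to 70). Few cells lay near the threshold of 3. Among callus cells that met the other terms, 416 had a sum of 0, 7 a sum of 1, 3 a sum of 2, 4 a sum of 3 and none a sum of 4. In intact tissue 26 had a sum of 0, 1 a sum of 1 and none a sum from 2 to 6. *Ncr1* or *Klrb1c* was seen in 10 of 10 intact and 78 of 80 callus NK cells, and 6 callus NK cells carried 1 CD3 UMI. A further 5 intact and 14 callus cells had the NK transcripts but 2 or more CD3 UMIs and were counted with T cells.

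The cells were checked against 12 NK markers outside the rule and against markers of other cell types. In callus, *Klrk1* was found in 77 of 80 cells, *Klrd1*, the CD94 chain, in 74, and *Il2rb*, the receptor chain shared by IL-2 and IL-15, in 79. In intact tissue they were found in 8, 10 and 9 of 10 cells. After each cell was thinned to 2500 UMIs, which kept 77 of 80 callus NK cells and 519 of 632 callus B cells, *Klrk1* was found in 88.3% of NK cells (79.0 to 94.5%) and 0.193% of B cells. Thinning is a random draw, and over all possible draws the mean for *Klrk1* is 82.9% with an SD of 3.17 percentage points. Median depth was 4875 UMIs in callus NK cells (1729 to 64079), 4469 in intact NK cells (2922 to 6529) and 3431.5 in callus B cells. *Klrd1* was found in 83.1% of thinned callus NK cells (mean over draws 84.6%), *Eomes* in 58.4% (58.0%), *Prf1* in 58.4% (58.0%) and *Gzmb* in 22.1% (24.7%), and in at most 0.771% of B cells for any of these. Of 11 B cell genes outside the rule, 7 were at 0 in intact and 4 in callus NK cells, among them *Ms4a1* and *Pax5* in both. The list summed to 6 UMIs in intact and 98 UMIs in callus NK cells (54 without the mixed cells described below). Its most abundant gene was *Ighm*, the IgM heavy chain, with 47 UMIs or 91.6 CPM in callus NK cells against 2028 CPM in callus B cells. Many genes that the rule did not use thus went with the label of NK cell. *Tbx21*, *Klri2* and *Cd160* were found in 30.5%, 27.7% and 19.0% of callus NK cells by the mean over draws. The markers were chosen with earlier results of these data known, so their values are a description and not independent support. No barcode of an NK cell occurred in the other library, although 1 barcode was shared over all cells.

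**Figure D1:**
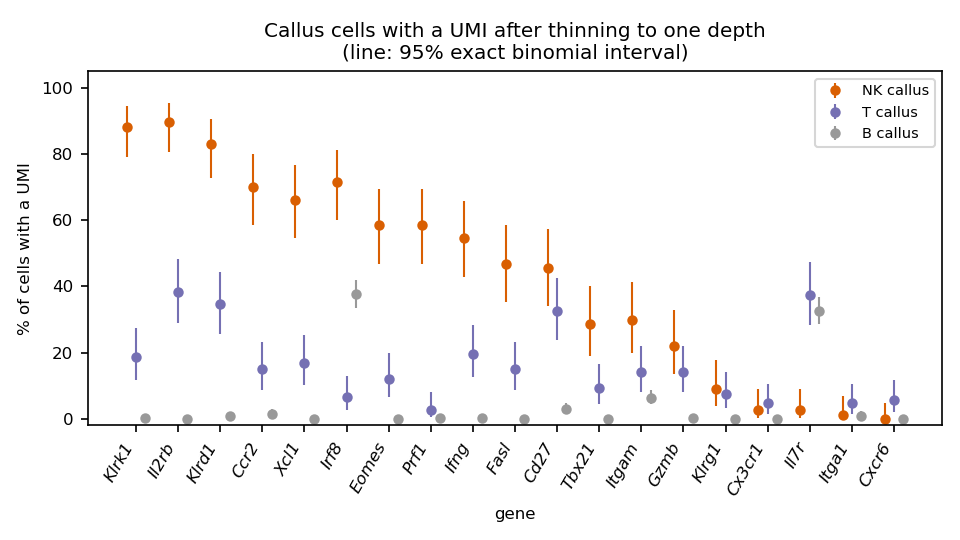
Share of callus NK, T and B cells with at least 1 UMI (y axis, percent) of each gene (x axis) after thinning to 2500 UMIs per cell, as points with exact 95% intervals. NK cells lie at 88.3% for *Klrk1* and 22.1% for *Gzmb*, while B cells lie near 0 for both but at 37.8% for *Irf8*, where NK cells lie at 71.4%, and at 32.6% for *Il7r*, where NK cells lie at 2.60%.

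Transcripts of other cell types were concentrated in 4 callus NK cells, which stood apart from the rest. Over 44 marker genes of neutrophils, monocytes and macrophages, B cells and stroma, the 80 callus NK cells held 2569 UMIs, of which 2417 (94.1%) lay in these 4 cells. No other callus NK cell held more than 13 such UMIs, with a median of 2, and no intact NK cell more than 8. The first had 64079 UMIs in all, 805 of them from neutrophil genes (772 of *Elane*, neutrophil elastase) and 544 from proliferation genes. The second had 24341 UMIs with 1126 from stromal genes (343 of *Col1a2*, type I collagen). The third had 8676 with 1113 from neutrophil genes (451 of *S100a8*, which like *S100a9* is not among the 44 genes), and the fourth 7458 with 103 from monocyte and macrophage genes (53 of *Lyz2*, lysozyme). They carried 75, 60, 8 and 23 UMIs of the rule genes, *Nkg7* included. *Ncr1* had 1, 4, 0 and 2 of these UMIs and *Gzma* 2, 37, 3 and 12. Whether each is 1 cell or several in a droplet was not tested beyond Scrublet doublet scores, whose highest values took in 1 of the 80 callus NK cells. The 4 cells are called mixed cells here, and many results are given with and without them. They hold 104554 of the 513235 callus NK UMIs and so lower the CPM of every gene they lack. Values given once include them unless stated otherwise.

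**Figure D2:**
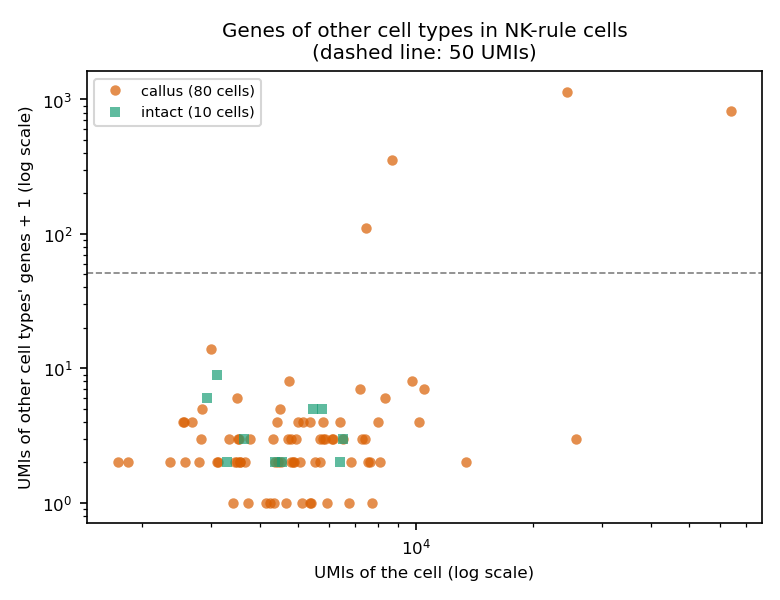
UMIs per NK cell (x axis, log scale) against UMIs of 44 marker genes of other cell types plus 1 (y axis, log scale), 1 point per cell, with a dashed line at 50 UMIs. The 4 callus cells above the line hold 94.1% of these UMIs, and the remaining cells hold 13 or fewer.

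NK cells were then set against T cells of the same library. T cells were defined by at least 2 CD3 UMIs and no *Cd79a* (32 intact and 112 callus cells). Of 6704 genes with at least 20 UMIs over both callus groups, 577 (8.61%) were at least 2-fold higher in NK cells and 486 (7.25%) at least 2-fold lower. Of the 12 NK markers outside the rule, 10 were at least 2-fold higher and 0 lower. Their median log2 ratio was 1.89, against 0.12 over all genes tested. In intact tissue, 1564 genes could be compared, of which 197 (12.6%) were higher and 181 (11.6%) lower. There 9 of 9 NK markers tested were higher, with a median log2 ratio of 2.15 against 0.12. The other 2 callus markers had smaller ratios, 1.92 for *Gzmb* (1.43 to 2.59) and 1.78 for *Cd160* (1.15 to 2.77). Part of the T cell group carried neutrophil transcripts, since 4 intact and 15 callus T cells had more than 2% of their UMIs from that list. Without them and the mixed cells, 427 genes were higher and 418 lower of 5864.

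Outside the receptor families described below, the 25 genes highest over T cells among those with UMIs in at least 20% of callus NK cells included a few that are not in any receptor, granule or cytokine list. *Car2*, a carbonic anhydrase listed here with red cell genes, had 138 UMIs in 56 of 80 callus NK cells, or 269 CPM against 18.0 CPM in T cells (15.0-fold, interval 8.62 to 28.1) and 125 CPM in B cells. It was the 1 of 5 red cell genes tested that was at least 2-fold above T cells, against 8.61% of all genes. *Hbb-bs*, a β-globin, was at 158 and 169 CPM. *Nrgn*, neurogranin, a calmodulin-binding protein, was at 162 against 8.98 CPM (18.0-fold, 8.36 to 46.2), in 22 of 80 NK cells, and at 87.8 CPM in B cells. *Adamts14*, a procollagen-processing protease, was at 83.8 CPM in 31 cells against 3 UMIs in T cells (21.8-fold, 6.96 to 110). *Sulf2*, a heparan sulfate 6-O-endosulfatase, was at 74.0 against 6.42 CPM (11.5-fold, 4.53 to 37.6). At most 4 UMIs of any of these 4 genes lay in the mixed cells.

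Genes of the T cell receptor and of helper and killer T cells were mostly at or near 0. *Cd3e*, *Cd4*, *Cd8a*, *Cd5* and *Themis* had 0 UMIs in the NK cells of both libraries, and *Trac*, the constant region of the receptor α chain, had 9 UMIs in 7 of 80 callus cells. The low CD3 level is what the rule asked for. The β chain constant region *Trbc1* was an exception. It had 239 UMIs in 66 of 80 callus NK cells and 13 UMIs in 7 of 10 intact ones, with 466 CPM in callus NK cells, 769 CPM in callus T cells and 0.878 CPM in callus B cells. *Trbc2* had 124 UMIs in 34 callus cells, *Trdc*, the δ chain constant region, 45 in 27 cells, and *Cd28*, a costimulatory receptor, 119 in 42 cells. Of 14 T cell genes outside the rule, 13 were tested against T cells in callus, and 10 were at least 2-fold lower in NK cells and 0 higher. Among all genes tested 7.25% were lower and 8.61% higher.

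**Figure D3:**
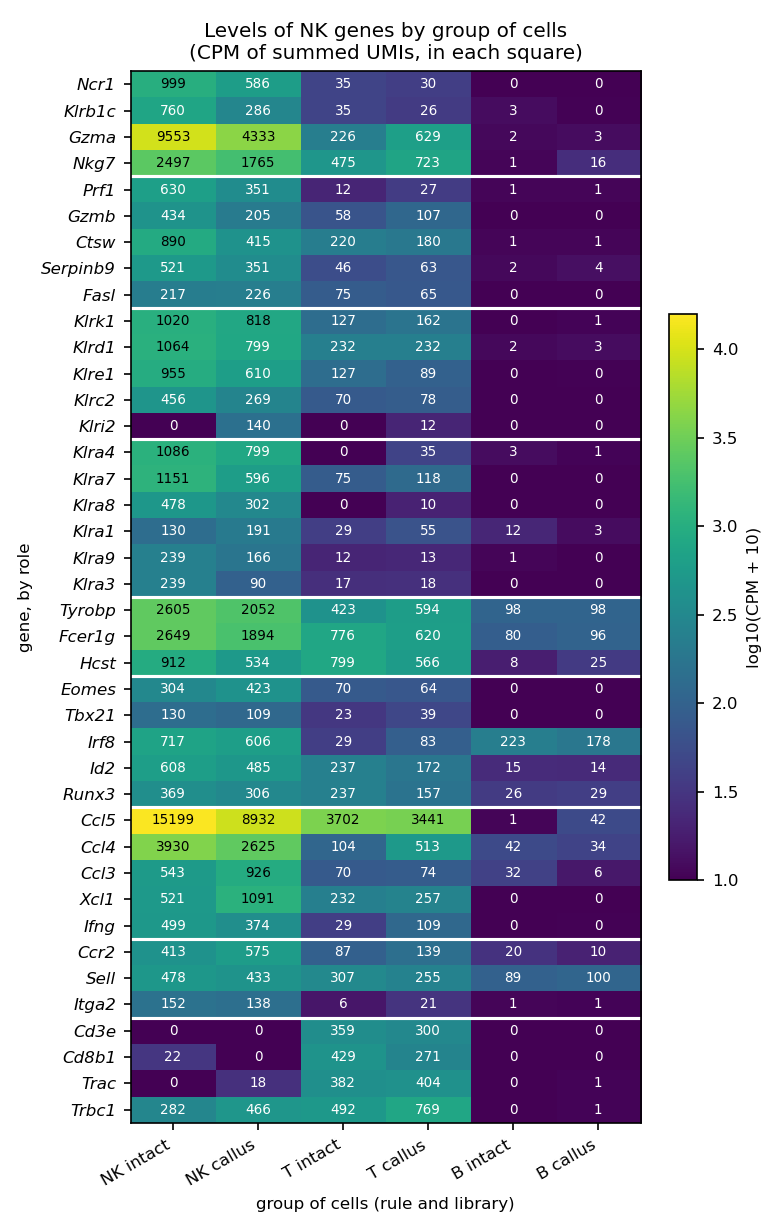
Level of 40 genes by role (rows) in NK, T and B cells of the intact and callus libraries (columns), with CPM of summed UMIs printed in each square and shown as colour on a log10 scale with 10 CPM added. The NK columns are brighter than the T columns for many receptor, granule and chemokine genes, such as *Prf1* at 630 and 351 CPM in NK cells and 11.6 and 27.0 CPM in T cells.

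Granule genes were carried by NK cells of both libraries. *Prf1*, perforin, which opens the pore in the target membrane, was found in 9 of 10 intact and 62 of 80 callus cells. Per 10000 UMIs of a cell it ranged from 0 through a median of 4.64 to 24.0 in intact tissue and from 0 through 3.19 to 33.8 in callus. The ranges overlapped and both started at 0. Its summed level was 630 CPM in intact and 351 CPM in callus (ratio 0.56, interval 0.37 to 0.86, and 0.68, 0.46 to 1.05, without mixed cells). *Gzmb*, granzyme B, was found in 5 of 10 intact and 27 of 80 callus cells, with up to 72.9 UMIs per 10000 in a callus cell and a median of 0. Its ratio of callus over intact was 0.47 (0.29 to 0.80), and 0.59 (0.36 to 1.01) without mixed cells.

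*Gzma*, a rule gene, had a median of 85.3 UMIs per 10000 in intact tissue (0 to 325) and 41.9 in callus (0 to 236), and sums of 9553 and 4333 CPM. *Ctsw*, cathepsin W, a protease of killer lymphocytes, had medians of 7.74 and 4.76 UMIs per 10000, at 890 and 415 CPM (ratio 0.47, 0.33 to 0.67, and 0.57, 0.41 to 0.82, without mixed cells). The interval of *Ctsw* lay below 1 with and without the mixed cells. The values of *Gzma* are a description, since it chose the cells. In T cells its callus over intact ratio was 2.85 when neutrophil-rich T cells were left out. The serpins *Serpinb9* and *Serpinb6b*, which shield killer cells from their own granzymes, were at 5.58-fold (4.05 to 7.81) and 4.94-fold (3.59 to 6.90) the T cell level in callus. *Fasl*, the death receptor ligand, was at 3.45-fold (2.46 to 4.90), and was 217 CPM in intact and 226 CPM in callus NK cells. Of the other granzymes, *Gzmc* had 2, *Gzmk* 4 and *Gzmm* 6 UMIs in callus NK cells and none in intact ones.

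Of 20 granule and killing genes outside the rule, 12 were tested between the conditions. Of these, 1 was at least 2-fold higher in callus (*Lamp1*, from 1 intact UMI, 5.65-fold, interval 0.98 to 227) and 3 at least 2-fold lower (*Gzmb*, *Ctsw* and *Stxbp2*). Over all 4114 genes tested between conditions, 576 (14%) were higher and 350 (8.51%) lower. The 95% interval excluded 1 for only 86 and 118 of these, so most of the 2-fold differences between conditions lie within counting error and a count of them is not a count of genes that changed. The list's median log2 ratio was −0.26 against 0.08 over all genes. Without the mixed cells it was −0.12 against 0.08, with 1 higher and 1 lower. *Stxbp2*, munc18-2, needed for granule release, was at 152 CPM from 7 UMIs in intact and 31.2 CPM from 16 UMIs in callus (ratio 0.21, 0.08 to 0.59), and its ratio was 0.23 (0.09 to 0.66) without mixed cells.

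**Figure D4:**
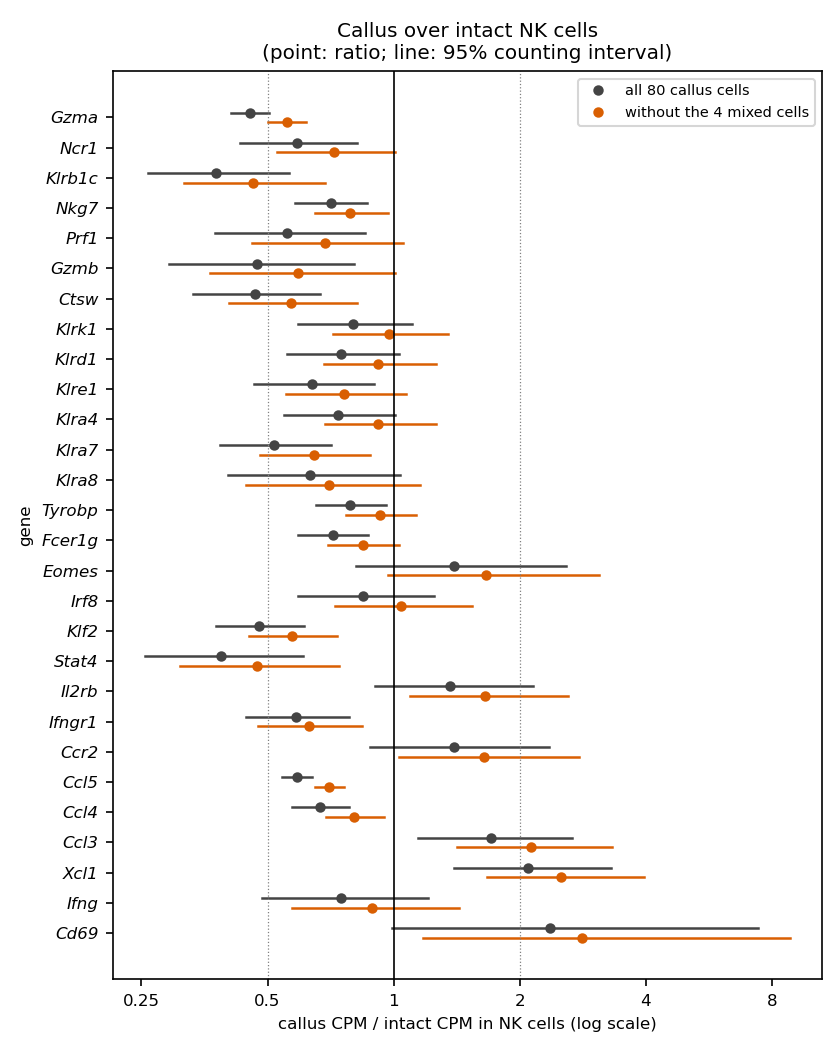
Ratio of callus over intact level in NK cells (x axis, log scale) for named genes, with exact 95% intervals, for all 80 callus cells and without the 4 mixed cells. *Xcl1* lies above 1 at 2.09 and 2.51, and *Stat4* below 1 at 0.39 and 0.47.

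Of 14 activating receptor genes outside the rule, 13 were tested between conditions, with 0 at least 2-fold higher and 0 lower in callus, against 14% and 8.51% of all genes. *Klrk1*, which binds stress ligands, had medians of 9.80 and 8.03 UMIs per 10000 in intact and callus cells (0 to 24.4 and 0 to 49.4). Its levels were 1020 and 818 CPM (ratio 0.80, 0.59 to 1.11, and 0.97, 0.72 to 1.35, without mixed cells). The range of the intact cells lay within that of the callus cells. The median log2 ratio of the 13 genes was −0.44, and −0.23 without the mixed cells, when *Crtam* was higher from 1 intact UMI (2.48, 0.40 to 102). Compared with 8.61% higher and 7.25% lower over all genes, 7 of 14 were higher and 1 lower against callus T cells. Among them were *Klrb1a* (17.8-fold, 8.25 to 45.6) and *Klrb1f* (8.10-fold, 4.63 to 15.1), of the NKR-P1 family, *Cd244a*, the 2B4 receptor (6.42-fold, 3.46 to 12.8), and *Klrc2*, NKG2C (3.43-fold, 2.52 to 4.72). *Slamf6*, a homotypic lymphocyte receptor, was the lower one at 0.13-fold (0.06 to 0.24).

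Of 20 genes of adaptors and kinases through which these receptors signal, 18 were tested against callus T cells, with 4 at least 2-fold higher, 2 lower and a median log2 ratio of 0.34. The shares over all genes in that comparison were 8.61% higher and 7.25% lower. *Tyrobp*, DAP12, which pairs with activating Ly49 receptors, was found in 10 of 10 cells from intact tissue and 78 of 80 from callus, at 2605 and 2052 CPM. *Fcer1g*, which pairs with NKp46 and the Fc receptor, was found in 10 and 79 cells, at 2649 and 1894 CPM. Against callus T cells they were 3.45-fold (3.09 to 3.86) and 3.06-fold (2.74 to 3.41) higher, and without the mixed and neutrophil-rich cells 8.24-fold (7.03 to 9.70) and 5.66-fold (4.91 to 6.54). In callus *Lat*, the T cell adaptor, was at 0.18-fold (0.10 to 0.30) the T cell level, and its relative *Lat2* 8.10-fold (4.33 to 16.5). *Syk* was 3.28-fold (1.86 to 5.98, and 6.51-fold, 2.96 to 16.3, without the mixed and neutrophil-rich cells) and *Zap70*, its counterpart in T cells, 0.72-fold (0.45 to 1.14). Of 16 adaptor genes tested between conditions, 0 were at least 2-fold higher and 2 lower in callus (*Lat2* and *Ptpn6*), and without the mixed cells 0 of 14 were apart by that much. All genes tested between conditions gave 14% higher and 8.51% lower.

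Inhibitory receptors and the CD94 group were carried in both conditions. Of 21 inhibitory receptor genes, 15 were tested against callus T cells where 9 were at least 2-fold higher and 2 lower, against 8.61% and 7.25% of all genes. The higher ones included *Klrd1* (3.44-fold, 2.88 to 4.12), *Klre1* (6.89-fold, 5.29 to 9.07) and *Klrc1* (2.40-fold, 1.56 to 3.76). The lower ones were *Klra5* from 6 NK UMIs (0.38-fold, 0.13 to 0.95) and *Pilra* from 2 (0.14-fold, 0.02 to 0.59). *Klre1* was found in 10 of 10 cells from intact tissue and 70 of 80 from callus, at 955 and 610 CPM (ratio 0.64, 0.47 to 0.90, and 0.76, 0.55 to 1.07, without mixed cells). *Klri2*, whose product pairs with that of *Klre1*, had 0 UMIs in the 10 intact cells and 72 UMIs in 29 of 80 callus cells, or 140 CPM. Against a limit of 3 UMIs over the intact NK cells it was at least 2.15-fold higher in callus, and at least 2.67-fold higher without the mixed cells. *Klri2* was not counted with the activating receptor genes above, and its place in this paragraph does not mean that it inhibits. In T cells *Klri2* had 0 UMIs in intact tissue and 9 in callus. Checkpoint receptors were near 0, with *Pdcd1* and *Havcr2* at 0 UMIs in all 90 NK cells, and *Tigit* at 2 and *Lag3* at 1 in callus.

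Ly49 receptors were found in 74 of 80 callus and 9 of 10 intact NK cells, in varied sets. Their genes lie in a row on chromosome 6 (GRCm38), from *Klra4* at chr6:130043731-130067271 through *Klra8* at chr6:130115226-130129898, *Klra9* at chr6:130178675-130193112, *Klra7* at chr6:130218605-130233322 and *Klra3* at chr6:130323289-130337574 to *Klra1* at chr6:130363917-130386874. All are on the minus strand. They are related in sequence, so that reads may have been split or lost between them and the count of each is uncertain. *Klra4* and *Klra8* encode the activating receptors Ly49D and Ly49H, and the other 4 encode inhibitory ones.

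*Klra4* was found in 7 of 10 cells from intact tissue and 52 of 80 from callus, at 1086 and 799 CPM. It had 0 UMIs in the 32 intact T cells and 34.7 CPM in callus T cells (23.1-fold, 15.6 to 35.4). *Klra8* was found in 3 and 36 cells, at 478 and 302 CPM, and was 29.4-fold (14.6 to 69.3) above callus T cells. These 2 genes led the 25 highest over T cells. *Klra7* was found in 6 and 51 cells, at 1151 and 596 CPM (ratio 0.52, 0.39 to 0.71, and 0.64, 0.48 to 0.88, without mixed cells). *Klra3* was found in 3 and 20 cells, at 239 and 89.6 CPM (ratio 0.38, 0.19 to 0.80, and 0.45, 0.23 to 0.97, without mixed cells). It was the 1 of 6 Ly49 genes tested that was at least 2-fold lower, and 0 were higher, against 8.51% and 14% of all genes. The family's median log2 ratio was −0.57, and −0.35 without the mixed cells.

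Most callus NK cells carried several Ly49 genes. Of 80 cells, 6 carried none of the 6 genes, 10 carried 1, 15 carried 2, 20 carried 3, 18 carried 4, 8 carried 5 and 3 carried all 6. The median was 3 in callus and 2.5 in intact tissue, and after thinning to 2500 UMIs it was 2 in both. An activating and an inhibitory gene were found together in 54 of 80 callus cells (67.5%, 56.1 to 77.6%), and in 43 of 77 (55.8%, 44.1 to 67.2%) after thinning. *Klra4* and *Klra8* were found together in 30 cells, *Klra4* alone in 22 and *Klra8* alone in 6. *Klrc1* or *Klrc2* was found in 62 of 80 callus cells (77.5%), among them all 6 with no Ly49 gene. After thinning it was found in 46 of 77 cells (59.7%) and in 4 of the 9 with no Ly49 gene.

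**Figure D5:**
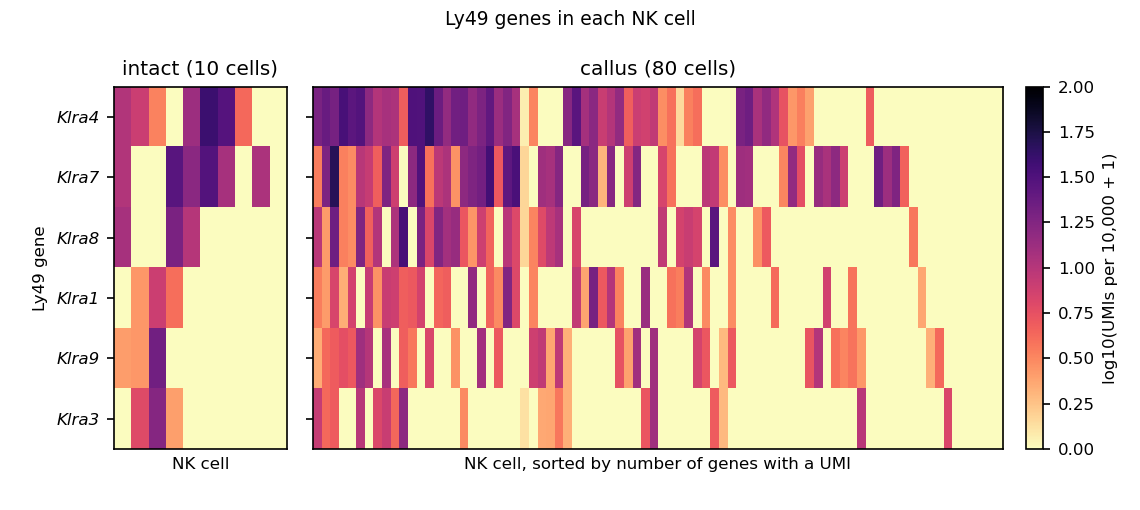
Level of 6 Ly49 genes (rows) in each NK cell (columns, intact at the left and callus at the right), with colour for UMIs per 10000 plus 1 on a log10 scale. Cells differ in which genes they carry, and 64 of 80 callus cells carry 2 or more.

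*Eomes* and *Tbx21*, the T-box factors that define conventional NK cells, were both present. *Eomes* was found in 61 of 80 callus and 4 of 10 intact cells, at 423 and 304 CPM (ratio 1.39, 0.81 to 2.59, and 1.67, 0.97 to 3.10, without mixed cells). *Tbx21* was found in 37 and 4 cells, at 109 and 130 CPM. *Eomes* or *Tbx21* was found in 69 of 80 callus cells, and after thinning in 53 of 77. *Irf8*, needed for NK cell responses, was at 606 CPM in callus NK cells against 83.4 CPM in T cells (7.26-fold, 5.54 to 9.64). Without the mixed and neutrophil-rich cells *Irf8* was at 746 against 60.7 CPM (12.3-fold, 8.75 to 17.7). *Id2* (2.82-fold, 2.28 to 3.51) and *Zeb2* (2.75-fold, 1.99 to 3.85) were also above T cells, while *Ikzf2*, Helios, and *Lef1* were below, at 0.05-fold (0.02 to 0.11) and 0.36-fold (0.24 to 0.53).

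Between conditions, the factor with the most UMIs behind its difference was *Klf2*, which controls egress of lymphocytes from tissue. It had medians of 11.6 UMIs per 10000 in intact (0 to 65.7) and 6.80 in callus cells (0 to 56.3). The levels were 1824 and 871 CPM (ratio 0.48, 0.38 to 0.61, and 0.57, 0.45 to 0.73, without mixed cells). In T cells *Klf2* was at 1309 and 913 CPM. Of 17 transcription factors tested, 1 was at least 2-fold higher in callus (*Foxo1*, from 1 intact UMI, 2.33, 0.38 to 95.7) and 2 lower (*Klf2* and *Prdm1*). Their median log2 ratio was −0.24, and 0.06 without the mixed cells. By comparison, 14% of all genes were at least 2-fold higher and 8.51% lower.

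NK cells carried receptor genes for IL-15 and IL-18, and few carried that for IL-7. *Il2rb* had medians of 5.66 and 8.55 UMIs per 10000 in intact and callus cells, at 521 and 709 CPM (ratio 1.36, 0.90 to 2.15, and 1.65, 1.09 to 2.61, without mixed cells). *Il18rap* was 3.86-fold (2.86 to 5.25) and *Il12rb2*, of the IL-12 receptor, 5.16-fold (1.83 to 17.9) above callus T cells. The wide interval of *Il12rb2* comes from few UMIs, so its ratio does not show that most NK cells carried it. *Il7r* was found in 3 of 80 callus cells, at 27.3 CPM against 255 CPM in T cells. *Stat4*, which carries the IL-12 signal, had medians of 6.35 and 2.36 UMIs per 10000, at 608 and 236 CPM (ratio 0.39, 0.26 to 0.61, and 0.47, 0.31 to 0.74, without mixed cells). *Ifngr1* was at 1303 and 762 CPM (ratio 0.58, 0.44 to 0.78, and 0.63, 0.48 to 0.84, without mixed cells). Of 14 cytokine receptor and signalling genes tested between conditions, 0 were at least 2-fold higher and 2 lower (*Stat4* and *Il12rb2*), the same number as without the mixed cells. These counts stand against 14% higher and 8.51% lower over all genes.

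Chemokines were among the most abundant transcripts of NK cells, and they did not move together. *Ccl5* and *Ccl4*, which attract other leukocytes, were lower in callus. *Ccl5* had medians of 162 (8.23 to 268) and 102 (0 to 383) UMIs per 10000, at 15199 and 8932 CPM (ratio 0.59, 0.54 to 0.64, and 0.70, 0.65 to 0.76, without mixed cells). *Ccl4* was at 3930 and 2625 CPM (ratio 0.67, 0.57 to 0.78, and 0.81, 0.69 to 0.95). Both stayed within 2-fold. *Ccl3* and *Xcl1* were higher in callus. *Ccl3* was at 543 and 926 CPM (ratio 1.71, 1.14 to 2.66, and 2.12, 1.42 to 3.31, without mixed cells), found in 6 of 10 and 56 of 80 cells.

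*Xcl1*, lymphotactin, which attracts cross-presenting dendritic cells, had medians of 4.76 UMIs per 10000 in intact (0 to 16.5) and 7.26 in callus (0 to 68.3). Its levels were 521 and 1091 CPM (ratio 2.09, 1.39 to 3.30, and 2.51, 1.67 to 3.96, without mixed cells). In T cells *Xcl1* was at 232 and 257 CPM. *Ifng*, interferon-γ, was found in 8 of 10 and 52 of 80 cells, at 499 and 374 CPM (ratio 0.75, 0.48 to 1.21). It was 3.43-fold (2.64 to 4.48) above callus T cells. *Ccl3*, *Ccl4*, *Ccl5*, *Xcl1* and *Ifng* were all found in 29 of 80 callus and 4 of 10 intact cells, and after thinning in 15 of 77 and 2 of 10. *Tnf* had 5 UMIs and *Csf2* 3 in callus NK cells, and *Il10*, *Il17a*, *Il22*, *Areg*, *Lta* and *Tnfsf11*, the osteoclast factor RANKL, had 0 in both libraries. Of 20 cytokine genes 9 were tested between conditions, with 1 at least 2-fold higher (*Xcl1*) and 0 lower, and without the mixed cells 3 of 7 were higher. Over all genes 14% were higher and 8.51% lower, and without the mixed cells 514 of 3464 were higher.

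Of 23 homing genes, 4 were at least 2-fold higher and 6 lower in callus NK than in callus T cells, against 8.61% and 7.25% of all genes. Without the mixed and neutrophil-rich cells 6 were higher and 7 lower. *Ccr2*, which draws cells to inflamed tissue, was at 575 CPM in callus NK cells against 139 CPM in T cells (4.15-fold, 3.32 to 5.22). *Itga2*, the CD49b integrin used to identify NK cells, was 6.74-fold (3.88 to 12.4) higher, and *S1pr5*, an egress receptor of NK cells, 4.55-fold (1.87 to 12.7). *Ccr7* and *S1pr1*, which guide T cells through lymph nodes, were at 0.09-fold (0.03 to 0.19) and 0.21-fold (0.14 to 0.31). Between conditions 20 of 23 homing genes were tested, with 2 at least 2-fold higher (*Cd69*, and *S1pr4* from 1 intact UMI, 2.06, 0.34 to 85.0) and 1 lower (*Cxcr3*), and the same 3 without the mixed cells. For this comparison the shares over all genes were 14% higher and 8.51% lower. *Cd69*, an early activation and retention receptor, was found in 3 of 10 cells from intact tissue and 51 of 80 from callus, at 109 and 257 CPM (ratio 2.37, 0.99 to 7.42, and 2.82, 1.18 to 8.83, without mixed cells). In T cells *Cd69* was at 353 and 510 CPM.

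*Cd27*, lost with maturation, and *Itgam*, gained with it, were both found in callus NK cells. *Cd27* without *Itgam* was found in 29 of 80 cells, *Itgam* without *Cd27* in 11, both in 24 and neither in 16. After thinning the numbers were 26, 14, 9 and 28 of 77. In the 10 intact cells they were 1, 3, 2 and 4 before thinning. A cell with 0 UMIs of a gene may still carry it, and cells could not be staged at this depth. Of 9 genes of the early stage tested, 2 were at least 2-fold higher in callus (*Xcl1*, and *Thy1* from 3 intact UMIs, 2.03, 0.67 to 10.1) and 0 lower, against 14% and 8.51% of all genes. Their median log2 ratio was 0.21, and 0.51 without the mixed cells, when 3 of 9 were higher. Of 12 genes of the late stage tested outside the rule, 0 were higher and 4 lower (*Gzmb*, *Cma1*, *Ly6c2* and *Prdm1*), with a median of −0.62 (−0.41 without mixed cells). Without the mixed cells 2 late genes were higher (*Ccl3* and *Spn*) and 3 lower. *Cma1*, mast cell protease 5, had 9 UMIs in 3 of 10 intact cells and 29 UMIs in 15 of 80 callus cells (ratio 0.29, 0.13 to 0.69).

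Genes of type 1 innate lymphoid cells and of tissue residence were mostly rare, apart from *Rgs1*. The list of 13 genes summed to 59 UMIs in intact NK cells, with 8 genes at 0, and to 386 UMIs in callus NK cells, with 2 at 0. *Rgs1*, a regulator of G protein signalling, made up 50 and 306 of these UMIs, at 1086 and 596 CPM (ratio 0.55, 0.41 to 0.76), and was at 513 CPM in callus T cells. *Cxcr6* and *Zfp683*, Hobit, had 0 UMIs in all 90 cells, *Itga1*, CD49a, had 4 UMIs in 3 callus cells, and *Inpp4b* had 1 UMI. At least 1 of 5 such genes was found in 7 of 80 callus and 1 of 10 intact cells, and 2 of those 7 had no *Eomes*. Against callus T cells, 7 of 10 tested genes of this list were at least 2-fold lower and 0 higher. The shares over all genes were 7.25% lower and 8.61% higher.

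Transcripts of cell division were found in part of the NK cells. None of 8 mitotic genes was found in 64 of 80 callus and 8 of 10 intact cells. At least 3 of the 8 were found in 5 of 80 callus cells (6.25%, 2.06 to 14.0%) and 0 of 10 intact cells (up to 30.8%). The 5 cells had 7752, 8676, 13470, 25701 and 64079 UMIs, and 2 of them were mixed cells. After thinning 3 of 77 cells had 3 or more and 66 had none. *Cenpa*, a centromere protein outside the 8, was found in 22 of 80 callus and 0 of 10 intact cells. The 5 cells held 128 of the 143 UMIs of *Mki67* and *Top2a* in callus NK cells. Of 18 proliferation genes 12 were tested between conditions, with 4 at least 2-fold higher in callus (*Mki67*, *Top2a*, *Stmn1* and *Hmgb2*) and 0 lower, but without the mixed cells 1 of 9 was. That gene was *Hmgb2*, a chromatin protein found in 9 of 10 cells from intact tissue and 70 of 80 from callus, at 456 and 1317 CPM (ratio 2.89, 1.87 to 4.70, and 2.61, 1.69 to 4.25, without mixed cells). Of all genes, 14% were higher and 8.51% lower in callus NK cells. In T cells without the neutrophil-rich ones, 9 of 18 proliferation genes were at least 2-fold higher in callus, against 572 of 4889 genes. In B cells 9 of 18 were, against 1066 of 10253. Against callus T cells 0 proliferation genes were higher in NK cells and 4 of 18 lower, with a median log2 ratio of −0.46. Without the mixed and neutrophil-rich cells 10 of 18 were lower, with a median of −0.89. All genes gave 8.61% higher and 7.25% lower, and 418 of 5864 lower without those cells. *Mki67* was at 0.40-fold (0.30 to 0.52), and at 0.27-fold (0.19 to 0.37) without those cells.

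Of 20 immediate-early genes and genes that respond to tissue digestion tested between conditions, 3 were at least 2-fold higher in callus and 0 lower, against 14% and 8.51% of all genes. The list's median log2 ratio was 0.10, and 0.004 without the mixed cells. The 3 were *Fosb* (304 and 748 CPM, ratio 2.46, 1.45 to 4.55), the chaperone *Hsp90aa1* (174 and 497 CPM, 2.86, 1.43 to 6.70) and *Egr1*. The last had 1 UMI in intact NK cells, and its ratio of 10.7 (1.88 to 425) was 4.06 (0.68 to 165) without the mixed cells. *Fos* was at 1628 and 1428 CPM. Of 10 interferon response genes tested, 1 was higher (*Gbp4*, from 1 intact UMI, 3.14, 0.53 to 128) and 1 lower (*Irf1*, 0.38, 0.19 to 0.80). Without the mixed cells 2 of 9 were higher and 1 lower. Of 14 MHC class I genes, 3 were higher (*Tap2*, *Tapbp* and *Nlrc5*), each from at most 3 intact UMIs with an interval that included 1, and the class I heavy chain *H2-K1* was at 1889 and 2206 CPM.

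Outside mitochondrial and haemoglobin genes and the lists of other cell types, the 15 genes highest in callus NK cells by log2 ratio with 10 CPM added included *Prtn3*, *Ctsg* and *Mpo*, neutrophil granule proteins, and *Sparc*, *Cilp*, *Thbs4* and *Postn*, matrix proteins, and nearly all UMIs of these 7 genes lay in mixed cells. For *Prtn3* these were 514 of 524 UMIs, for *Mpo* 405 of 406, for *Sparc* 332 of 333 and for *Thbs4* 171 of 171. Without the mixed cells 3464 genes were tested, with 514 higher (44 with an interval excluding 1) and 257 lower (85). The 15 highest by the same measure all had 0 UMIs in the 10 intact cells, and they ranked by their callus UMIs alone. Their lower bounds ran from 1.54-fold (*Socs1* and *Chka*) to 2.67-fold (*Klri2*).

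Some of the lowest genes in callus NK cells, taken with the same exceptions, were also lower in callus T cells, and *AY036118* in B cells too. *AY036118* was at 1759 and 134 CPM (ratio 0.08, 0.05 to 0.11), with 0.09 in T cells and 0.09 in B cells. Haemoglobin *Hbb-bs*, one of the exceptions, was at 1086 and 158 CPM (0.15, 0.10 to 0.21), at 863 and 169 CPM in T cells and at 8432 and 6342 CPM in B cells. Of the red cell genes tested, 4 of 5 were at least 2-fold lower in callus NK cells, against 8.51% of all genes. In T cells 4 of 4 were lower, against 204 of 4889 genes, and in B cells 1 of 8, against 543 of 10253. The part of free RNA in these differences was not tested. For others the T cell ratio was nearer to 1 or rested on few UMIs. *Tle4*, a Groucho corepressor, was at 565 and 140 CPM (0.25, 0.16 to 0.41), with 0.69 in T and 0.49 in B cells. *Sgk1*, a kinase, was at 369 and 66.2 CPM (0.18, 0.10 to 0.34), but it came from only 2 of 10 intact and 16 of 80 callus cells. T cells held 2 UMIs of *Sgk1* in intact tissue and 14 in callus, and the B cell ratio was 0.77. *Styk1*, a kinase-like protein known as NOK, was at 261 and 64.3 CPM (0.25, 0.12 to 0.52) in 6 of 10 and 22 of 80 cells. T cells held 0 UMIs of *Styk1* in intact tissue and 11 in callus, which gives no direction. The NK ratios rest on 12 to 81 UMIs in 10 intact cells. The T cell ratios, and the T cell UMIs of *Sgk1* and *Styk1*, leave out the neutrophil-rich cells.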

How the data were processed

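The authors sequenced 10x Chromium 3′ libraries and deposited raw UMI counts made with Cell Ranger 6.0.0 (mm10 per the labels). Positions come from GENCODE on GRCm38, which held 32158 of the 32285 identifiers (99.6%). Members of the NK rule and the gene lists were chosen with earlier results of these data known. The T rule asked for at least 2 CD3 UMIs and no *Cd79a*, and the B rule for at least 3 *Cd79a* UMIs and no CD3. Levels are counts per 1000000 UMIs (CPM) of UMIs summed over cells. Ratios have exact conditional binomial 95% intervals, CPM exact Poisson ones. Genes needed at least 20 UMIs over both groups, and a group at 0 entered a ratio at 3 counts. Log2 ratios, used for list medians and rankings, did not use that limit and had 10 CPM added to both levels. No doublets were removed, and removal of the highest Scrublet scores (scanpy 1.11.5) was an alternative. Mixed cells had at least 50 UMIs of the other cell types' lists, without *S100a8*, *S100a9*, *Cd74*, *H2-Aa* and *Igkc*. This, the limit of 2% neutrophil UMIs and the mean over draws of the thinning were chosen after seeing the data.

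Genes named are members of the role lists, the 15 highest and 15 lowest log2 ratios of callus over intact NK cells outside mitochondrial, haemoglobin and other cell types' genes, and the 25 highest of callus NK over T cells with UMIs in at least 20% of NK cells, of which the text gives a selection. The ratio script was tested on simulated data. Tools were python 3.11.15, numpy 2.4.6, scipy 1.17.1, pandas 2.3.3 and matplotlib 3.10.9. Some genes that these rules name are not reported here.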

Additional observations from a re-analysis of the deposited data

Results flagged for a closer look

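*Calr*, calreticulin, an endoplasmic reticulum chaperone, was lower in NK than in T cells in intact tissue and higher in callus, with a log2 ratio of ratios of 4.36. In intact tissue it had 1 UMI in NK and 34 in T cells (ratio 0.11, interval 0.0027 to 0.66), and in callus 218 and 146 UMIs (2.27, 1.83 to 2.81). The difference was not tested, and 136 of the 218 callus NK UMIs lay in the 4 mixed cells. Without these cells callus NK cells had 201 CPM against 187 CPM in T cells, and with the neutrophil-rich T cells also left out the ratio was 0.97 (0.72 to 1.28), so the 2-fold difference in callus rests on the mixed cells. Of 1562 genes compared in both libraries, 2 were at least 2-fold apart in opposite directions, and *Calr* was the 1 whose intervals both excluded 1.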

How the results depend on the processing

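The sign of 11 of 290 list medians turned. For callus over intact NK cells, transcription factors went from −0.24 to 0.45 with *Gzma* out of the rule, 0.24 without NK cells holding 5 or more UMIs of other cell types, 0.10 by the mean of each cell's CPM and 0.06 without mixed cells. Homing genes went from −0.15 to 0.24 with *Gzma* out of the rule, 0.25 by the mean of each cell's CPM and 0.02 without mixed cells. Inhibitory receptors went from −0.46 to 0.07 and cytokine receptors from −0.39 to 0.06 with *Gzma* out of the rule, and the latter to 0.03 at a minimum of 10 UMIs. For NK over T cells in callus, transcription factors went from 0.37 to −0.07 at a minimum of 50 UMIs. These medians therefore give no direction for their lists. Counts of genes moved chiefly with the minimum of UMIs. For callus over intact NK cells, a minimum of 50 UMIs gave 233 genes at least 2-fold higher (576 at a minimum of 20) and 70 lower (350), a minimum of 10 gave 760 lower, and leaving out NK cells with 5 or more UMIs of other cell types gave 222 lower. For NK over T cells in callus, minimums of 10 and 50 gave 983 and 232 higher (577) and 843 and 186 lower (486). In intact tissue they gave 562 and 51 higher (197) and 422 and 57 lower (181). The median log2 ratio of cytokine genes, 0.76, was 0.059 when *Gzma* was taken out of the rule, 0.15 with the rule at 5 UMIs, 0.18 at a minimum of 10 UMIs, 0.19 without the highest Scrublet scores, and −0.41 with genes at 0 in intact NK cells entered at 3 counts. Unthinned shares of callus NK cells were 96.25% for *Klrk1*, 92.5% for *Klrd1*, 76.25% for *Eomes*, 77.5% for *Prf1*, 33.75% for *Gzmb*, 98.75% for *Il2rb*, 66.25% for *Cd27* and 43.75% for *Itgam*. The causes of these moves were not tested. Otherwise 70 of 82 counts, 289 of 290 list medians and all 18 shares of cells stayed within their limits. For a list median the limit was set by the width of the counting intervals of its genes. The 11 medians that turned sign lay within it, so the 289 do not show that directions held. Removing the highest Scrublet scores took out 12 intact and 87 callus barcodes, of which 1 was an NK cell. No paired analysis was possible because each condition has 1 library. The 10 intact cells, at 21.7 CPM per UMI, limit the precision of every ratio between conditions.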
